A study of Mus musculus with 15 samples.

Results

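Voltage-gated sodium and calcium channels, HCN channels, the NALCN leak channel complex and the TRPM and TRPV channels were followed in sorted cells of the embryonic and newborn mouse ventral midbrain. Members were all genes whose symbol begins with Scn and a digit, Cacna, Cacnb, Cacng, Hcn and a digit, Trpm1 to Trpm8 or Trpv1 to Trpv6, together with Nalcn, Unc79 and Unc80, and Trpc genes were not taken. The 2 gene tables held 56 such genes of 21647, made up of 8 sodium channel alpha and 4 beta subunits, 10 calcium channel alpha1, 4 alpha2delta, 4 beta and 7 gamma subunits, 4 HCN channels, 3 genes of the NALCN complex, 7 TRPM and 5 TRPV channels. All 56 were in the table of sorted cells (21566 genes) and 39 in the table of the time series (10781 genes), whose lowest gene value stands for 38 reads in a library, so genes of low abundance have no row there. All animals had the genotype Pitx3-GFP, where the reporter stands for use of Pitx3, a transcription factor gene of midbrain dopamine neurons. Cells were purified by fluorescence-activated sorting. Cells with and without GFP were compared on embryonic day 14 (E14; 3 GFP+ and 3 GFP- libraries). A separate time series took GFP+ cells of E14, of embryonic day 16 (E16) and of newborns (P0), each age with 3 libraries. Sorted libraries carry the numbers of the deposited columns, and time series libraries those of their titles. Midbrains of 3 litters were used per the series' design text, which does not tie a library to a litter, so p-values measure the spread between libraries, part of which may be technical. The labels give neither the sex of the animals nor the number of reporter copies.

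Sodium channel alpha subunits form the pore that carries the rising phase of the action potential, and their beta subunits set gating and surface expression. Calcium channel alpha1 subunits form the calcium pore, which the intracellular beta and extracellular alpha2delta subunits help to reach the membrane. Adult midbrain dopamine neurons fire spontaneously, and L-type calcium channels, HCN channels, which open on hyperpolarization, and the sodium leak through NALCN, which works with Unc79 and Unc80, are known contributors to that pacemaking. TRPM and TRPV channels are cation channels gated by heat, ligands, calcium or oxidative signals.

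Reads recovered from the normalized values summed to 17369191 to 22374153 per sorted library, over 21566 genes. They summed to 17910017 to 33386535 per time series library, over 10781 genes. These sums cover different gene sets and are not the sequencing depth. The labels call all samples dopamine neurons, but Th, the enzyme that starts dopamine synthesis, was at 77.5 to 110.3 normalized reads in GFP- against 7649 to 9333 in GFP+ libraries, so GFP- cells are described here by their sort alone. The 8 dopamine neuron markers summed to 4999.8 to 6498 in GFP- and 75212 to 82437 in GFP+ libraries. The 8 radial glia or progenitor markers summed to 72146 to 85365 in GFP- and 6992 to 8450.4 in GFP+ libraries, and the 6 erythroid markers to 12852 to 13608 and 274 to 446. All 6 dividing cell, 6 microglia, 6 erythroid and 3 tested glutamatergic neuron markers, 5 of 6 endothelial or pericyte, 5 of 7 GABAergic, 4 of 6 oligodendrocyte lineage and 2 of 5 astrocyte markers were lower in GFP+ cells, and 2 GABAergic, 1 astrocyte and 1 of 4 muscle markers were higher. The 7 GABAergic markers summed to 4540.1 to 5312 in GFP- and 2606 to 2876 in GFP+ libraries, and no marker of these lists was at 0 in all libraries of a group. A difference between the sorts is therefore one between a dopamine-rich and a mixed population, and fewer cells of a type cannot be told apart from less RNA per cell. The part of this mixture in the channel results was not tested.

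Promoter sequence was taken from RefSeq promoters on GRCm38.p6, where 43 of the 56 members had an entry. The bases shown are the 120 upstream of the RefSeq start, written 5′ to 3′ on the gene's own strand, with capitals marking the GC box (GGGCGG on either strand). They are those of Trpv1 and Cacna2d3, which had large differences between the sorts, of Cacna2d1, the relative of Cacna2d3 that led in GFP- cells, of Scn9a and Scn2a from the sodium channel cluster, and of Nalcn, Unc80 and Unc79, whose RNAs parted with age.
Trpv1 (chr11:73234029-73234148, + strand): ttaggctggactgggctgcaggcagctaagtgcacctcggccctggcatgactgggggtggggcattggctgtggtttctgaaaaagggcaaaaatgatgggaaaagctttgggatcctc
Cacna2d3 (chr14:29721865-29721984, - strand): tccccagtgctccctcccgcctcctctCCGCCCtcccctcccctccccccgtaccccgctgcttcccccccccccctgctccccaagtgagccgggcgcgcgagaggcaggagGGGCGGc
Cacna2d1 (chr5:15934571-15934690, + strand): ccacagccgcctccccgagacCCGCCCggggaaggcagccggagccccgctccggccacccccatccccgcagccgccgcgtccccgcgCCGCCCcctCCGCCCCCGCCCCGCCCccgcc
Scn9a (chr2:66634963-66635082, - strand): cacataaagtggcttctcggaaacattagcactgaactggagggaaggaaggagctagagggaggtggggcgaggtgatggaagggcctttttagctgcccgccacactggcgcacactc
Scn2a (chr2:65620649-65620768, + strand): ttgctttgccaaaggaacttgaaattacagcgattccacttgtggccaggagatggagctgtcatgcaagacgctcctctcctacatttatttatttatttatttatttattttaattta
Nalcn (chr14:123627145-123627264, - strand): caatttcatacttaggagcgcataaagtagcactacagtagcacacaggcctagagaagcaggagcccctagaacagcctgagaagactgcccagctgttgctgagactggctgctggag
Unc80 (chr1:66467814-66467933, + strand): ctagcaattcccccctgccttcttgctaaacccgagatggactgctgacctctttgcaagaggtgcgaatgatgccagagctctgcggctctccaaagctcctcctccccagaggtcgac
Unc79 (chr12:102948739-102948858, + strand): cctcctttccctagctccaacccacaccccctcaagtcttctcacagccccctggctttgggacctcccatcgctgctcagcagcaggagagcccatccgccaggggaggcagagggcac

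Over 250 upstream bases, G and C made up 80% for Cacna2d3 and 82.4% for Cacna2d1, but 29.6% for Scn2a and 45.2% for Nalcn. The median was 56.8% over the 43 member promoters and 52.4% over all 32851. A GC box was present in 16 of 43 member promoters (37.2%; 32.7% of all), among them Cacna2d1, Cacna2d3, Cacnb1, Cacnb2, Cacnb4, Hcn2, Hcn4 and Trpm2. TATAAA was present in 3 (6.98%; 12.4% of all), namely Cacna1d, Trpm2 and Trpm8. The NR4A-type site AAAGGTCA was present in 1, Trpv6 (2.33%; 1.34% of all), and the bicoid-type site TAATCC in 3 (6.98%; 6.25% of all), namely Cacna1s, Cacng8 and Scn7a, all searched on both strands; the letters of no motif hold another. The RefSeq start lay 143 bases from the GENCODE M21 gene start for Trpv1 and 433 for Unc80, and at most 2 for the other 6 genes shown.

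By position on GRCm38, 5 sodium channel alpha genes lay in the same stretch of chromosome 2: Scn3a (65457118 to 65567627), Scn2a (65620771 to 65767447), Scn1a (66270778 to 66440840), Scn9a (66480080 to 66634962) and Scn7a (66673425 to 66784914). Trpv1 (chromosome 11, 73234292 to 73261242) lay next to Trpv3 (73267388 to 73300363) on the same strand. Annotated genes overlapped 32 of the 56 members on the opposite strand and 13 on the same strand, and 21, among them Trpv1, Trpv2, Scn2a, Scn8a and Hcn2, had no overlap on either. The sources used here do not say whether counting used strand. Reads of overlapping genes therefore cannot be told apart, as for Scn9a, Cacna2d3, Trpm3, Cacnb2 and Unc79.

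In the sorted cells at E14, most channel genes that differed were higher in the GFP+ cells. Of 51 members with a mean of at least 5 normalized reads, 18 were higher in GFP+ cells, 1 was lower and 32 did not pass the threshold (limma, Benjamini-Hochberg adjusted p under 0.05 over all 18260 genes tested), where 12.7% of all genes were called higher and 18.0% lower. At least 2-fold higher were 7, against 4.24% of all genes. The median log2 fold change, on the log2(normalized reads + 1) scale used throughout, was 0.27 over the members and 0.02 over all genes. The higher genes were spread over the families, with 4 of 8 sodium alpha subunits, 3 of 8 calcium alpha1 subunits, 2 of 4 alpha2delta, 3 of 7 gamma and 2 of 3 NALCN complex genes.

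**Figure D1:**
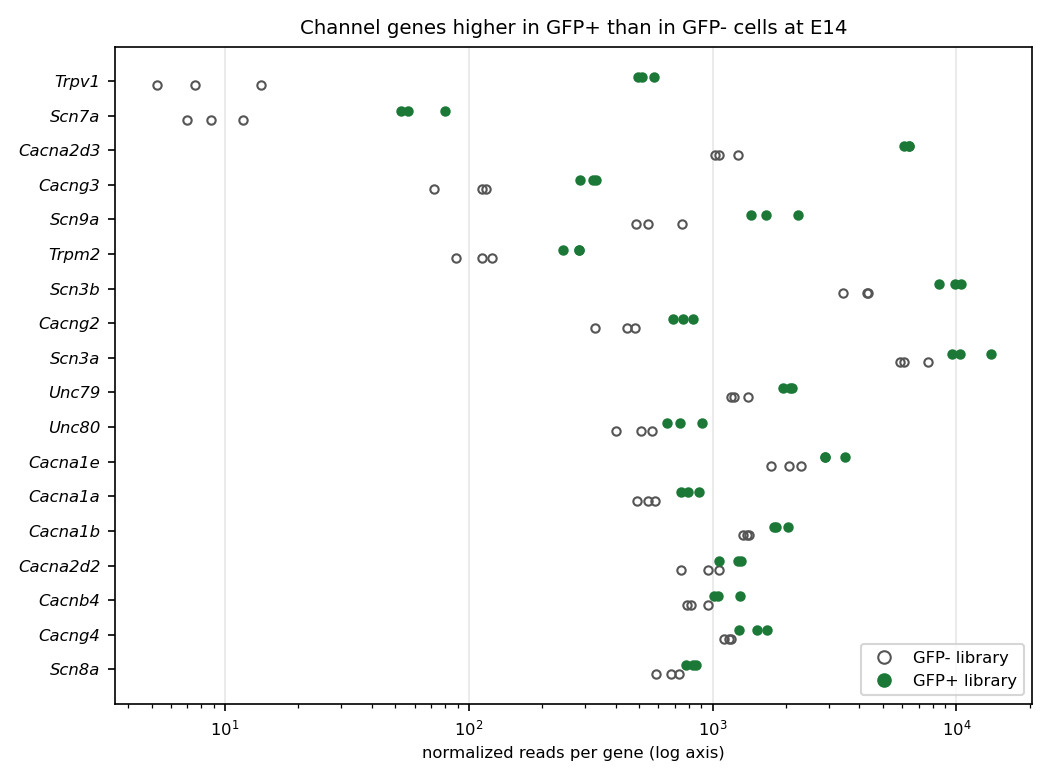
Normalized reads (log axis) of the 18 channel genes called higher in GFP+ (filled circles) than in GFP- (open circles) cells at E14, 1 circle per library, 3 libraries per group. The GFP+ circles lie to the right of the GFP- circles, with an overlap for Cacna2d2.

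Among sodium channel pores, the difference was uneven. Scn3a, the alpha subunit typical of embryonic neurons, stood at 7637, 6079.7 and 5862 normalized reads in the GFP- and 13816, 9595 and 10381 in the GFP+ libraries. The Scn3a log2 fold change was 0.78 (SE 0.14, adjusted p = 0.00122). Scn9a, best known from sensory neurons of pain, stood at 751, 543 and 485 normalized reads in the GFP- and 2246, 1439.6 and 1649 in the GFP+ libraries. The Scn9a log2 fold change was 1.58 (SE 0.18, adjusted p = 3.59e-05). For both genes the lowest GFP+ library was above the highest GFP- library, and GFP+ library 1 was the highest of all. Scn7a, an atypical sodium channel that senses extracellular sodium, was low at 11.8, 8.75 and 7.0 normalized reads in the GFP- and 80.2, 52.7 and 56.4 in the GFP+ libraries, which rests on 29 recovered reads in all GFP- and 177 in all GFP+ libraries. The Scn7a log2 fold change was 2.66 (SE 0.31, adjusted p = 4.78e-05). Its GFP+ libraries were all above its GFP- libraries. Scn8a, which replaces other subunits at mature axon initial segments, stood at 674, 729.8 and 586 normalized reads in the GFP- and 858, 833 and 781 in the GFP+ libraries, with no overlap of the groups. The Scn8a log2 fold change was 0.32 (SE 0.10, adjusted p = 0.0334). Scn2a, the main alpha subunit of young axons, stood at 3759, 3956 and 3799 normalized reads in the GFP- and 3811, 3710.0 and 3551 in the GFP+ libraries, with the groups overlapping. The Scn2a log2 fold change was -0.06 (SE 0.07, adjusted p = 0.594). Scn1a, prominent in fast-spiking interneurons, stood at 668, 608 and 567 normalized reads in the GFP- and 967, 706 and 706 in the GFP+ libraries, did not overlap and missed the threshold. The Scn1a log2 fold change was 0.35 (SE 0.13, adjusted p = 0.0585). Scn11a, of sensory neurons, was low in all 6 libraries, at 19.4 to 34.7 normalized reads, with a log2 fold change of -0.11 that missed the threshold.

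Per kilobase of exon, Scn3a was the most abundant alpha subunit in both sorts, at 524 ± 77.7 normalized reads per kilobase in GFP- cells (mean ± SD, n = 3). In GFP+ cells it was at 904 ± 180.2. Its share of the length-scaled sum of Scn1a, Scn2a, Scn3a and Scn8a was 56.6 ± 3.51% in GFP- and 68.3 ± 3.10% in GFP+ cells. The share of Scn2a was 32.9 ± 3.17% and 22.3 ± 2.74%. Neither pair of ranges overlapped, and no test was run. With Scn9a added to the sum, the share of Scn3a was 53.9 ± 2.98% in GFP- and 61.8 ± 2.31% in GFP+ cells. Among beta subunits, Scn3b stood at 3441, 4338 and 4305 normalized reads in the GFP- and 8508, 9901 and 10481 in the GFP+ libraries. The Scn3b log2 fold change was 1.26 (SE 0.11, adjusted p = 4.20e-06). At 1763 ± 186 normalized reads per kilobase it was the highest of all 56 members in GFP+ cells. Scn2b, which is linked covalently to the pore, overlapped between the sorts at 522, 643 and 541 normalized reads in the GFP- and 598, 639 and 564 in the GFP+ libraries. The Scn2b log2 fold change was 0.08 (SE 0.11, adjusted p = 0.605).

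Calcium channel pores of presynaptic type were higher in GFP+ cells. Cacna1e, the R-type pore, stood at 2309, 2050.2 and 1739 normalized reads in the GFP- and 3508, 2897 and 2906 in the GFP+ libraries. The Cacna1e log2 fold change was 0.61 (SE 0.11, adjusted p = 0.00153). Cacna1a, the P/Q-type pore, stood at 583, 543 and 489.7 normalized reads in the GFP- and 879.5, 744 and 792 in the GFP+ libraries. The Cacna1a log2 fold change was 0.58 (SE 0.10, adjusted p = 0.00115). Cacna1b, the N-type pore, stood at 1411, 1388 and 1329 normalized reads in the GFP- and 2044, 1829 and 1785 in the GFP+ libraries. The Cacna1b log2 fold change was 0.45 (SE 0.08, adjusted p = 0.00126). None of these 3 overlapped between the sorts, and for each the highest library was GFP+ library 1. The L-type pores did not pass: Cacna1c stood at 731, 776 and 698 normalized reads in the GFP- and 895, 817 and 810.3 in the GFP+ libraries. The Cacna1c log2 fold change was 0.19 (SE 0.09, adjusted p = 0.122). Cacna1d, the L-type pore tied to dopamine neuron pacemaking, stood at 519, 519 and 421 normalized reads in the GFP- and 547, 516 and 490.2 in the GFP+ libraries. The Cacna1d log2 fold change was 0.10 (SE 0.11, adjusted p = 0.554). The Cacna1c libraries did not overlap, and the Cacna1d libraries did. The T-type pores, which open near rest, did not pass either, with Cacna1g at 1023, 993 and 813 normalized reads in the GFP- and 856, 884 and 872 in the GFP+ libraries (log2 fold change -0.11). Cacna1h stood at 1201, 1504 and 1339.7 normalized reads in the GFP- and 1382, 1492 and 1529 in the GFP+ libraries (log2 fold change 0.13). Cacna1i stood at 209, 246 and 189 normalized reads in the GFP- and 241, 235 and 303 in the GFP+ libraries (log2 fold change 0.27). All 3 T-type genes overlapped between the sorts.

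Of the alpha2delta subunits, Cacna2d3 stood apart. Cacna2d3 (chromosome 14, 28904943 to 29721864) stood at 1019, 1063 and 1269 normalized reads in the GFP- and 6092, 6367 and 6419.6 in the GFP+ libraries. The Cacna2d3 log2 fold change was 2.50 (SE 0.09, adjusted p = 4.81e-09). Cacna2d1, a gabapentin-binding subunit, stood at 6724, 4912 and 5266 normalized reads in the GFP- and 5490.0, 4112 and 4487 in the GFP+ libraries. The Cacna2d1 log2 fold change was -0.26 (SE 0.13, adjusted p = 0.160). The Cacna2d3 groups were far apart, while those of Cacna2d1 overlapped, with library 1 the highest of each sort. In the length-scaled sum of the 4 alpha2delta genes, Cacna2d3 took 18.4 ± 2.77% in GFP- and 57.6 ± 2.54% in GFP+ cells. Cacna2d1 took 64.5 ± 6.34% and 30.1 ± 4.01%, so the leading subunit differed between the sorts. Cacna2d2 stood at 745, 1068 and 957 normalized reads in the GFP- and 1059, 1276 and 1308 in the GFP+ libraries, overlapping slightly, and Cacna2d4 was at 8.51 to 24.5 normalized reads (log2 fold change -0.75, adjusted p = 0.129). The Cacna2d2 log2 fold change was 0.40 (SE 0.13, adjusted p = 0.0382). Of the intracellular beta subunits, Cacnb4 stood at 955, 785 and 813 normalized reads in the GFP- and 1302, 1010.3 and 1057 in the GFP+ libraries, without overlap. The Cacnb4 log2 fold change was 0.40 (SE 0.11, adjusted p = 0.0216). Cacnb3, the most abundant beta subunit per kilobase in both sorts, was close at 2426, 2897 and 2595 normalized reads in the GFP- and 2359.7, 2759.9 and 2932 in the GFP+ libraries (log2 fold change 0.02), and Cacnb2 and Cacnb1 had log2 fold changes of -0.0028 and 0.27 that missed the threshold.

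The gamma family holds the TARPs, auxiliary subunits that carry AMPA receptors to the synapse, and 3 of its 7 members were higher in GFP+ cells. Cacng3 stood at 72.1, 117 and 113 normalized reads in the GFP- and 285, 332 and 323 in the GFP+ libraries. The Cacng3 log2 fold change was 1.66 (SE 0.19, adjusted p = 3.64e-05). Cacng2, known as stargazin, stood at 330.4, 479.5 and 444 normalized reads in the GFP- and 688, 759.6 and 828 in the GFP+ libraries. The Cacng2 log2 fold change was 0.87 (SE 0.14, adjusted p = 0.000522). Cacng4 stood at 1116, 1194 and 1168 normalized reads in the GFP- and 1285, 1527 and 1674 in the GFP+ libraries. The Cacng4 log2 fold change was 0.36 (SE 0.10, adjusted p = 0.0186). In all 3 the groups were separate, with GFP- library 1 the lowest. Cacng7, Cacng8 and Cacng5 had log2 fold changes of -0.04, 0.30 and -0.53 that missed the threshold, and Cacng1, a skeletal muscle subunit, was at 1.08 to 9.57 normalized reads.

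Of the NALCN complex, both partners were higher in GFP+ cells and the pore did not pass. Unc79 stood at 1404, 1187 and 1219.9 normalized reads in the GFP- and 2079.7, 1945 and 2120.4 in the GFP+ libraries. The Unc79 log2 fold change was 0.69 (SE 0.09, adjusted p = 8.83e-05). Unc80 stood at 510.2, 567 and 403 normalized reads in the GFP- and 903, 649 and 738 in the GFP+ libraries. The Unc80 log2 fold change was 0.63 (SE 0.15, adjusted p = 0.00694). Nalcn, the pore itself, stood at 1523, 1659 and 1542 normalized reads in the GFP- and 1807, 1699.6 and 1581 in the GFP+ libraries. The Nalcn log2 fold change was 0.11 (SE 0.08, adjusted p = 0.364). Both partners were separate between the sorts and the Nalcn libraries overlapped, and the difference between the genes was not tested. Among HCN channels, Hcn2 stood at 117, 166 and 130.3 normalized reads in the GFP- and 94.5, 136 and 146 in the GFP+ libraries (log2 fold change -0.15), and Hcn3 at 427, 580.1 and 476 normalized reads in the GFP- and 601, 588 and 587 in the GFP+ libraries (log2 fold change 0.27). Hcn4 stood at 495, 615 and 571 normalized reads in the GFP- and 585, 706 and 724 in the GFP+ libraries (log2 fold change 0.26), and none of Hcn2, Hcn3 and Hcn4 passed. Per kilobase, Hcn3 (143 ± 1.81) and Hcn4 (109.8 ± 12.3) led in GFP+ cells, with Hcn2 at 39.3 ± 8.50.

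Trpv1, the capsaicin and heat receptor, had the largest absolute log2 fold change of the 51 members tested. It stood at 7.53, 14 and 5.25 normalized reads in the GFP- and 573, 513 and 496 in the GFP+ libraries, where a pseudocount of 1 understates the change of so low a level. The Trpv1 log2 fold change was 5.83 (SE 0.29, adjusted p = 4.46e-08). Every GFP+ library was far above every GFP- library. Its chromosomal neighbour Trpv3 was at 13.2 to 26.2 normalized reads in all 6 libraries (log2 fold change 0.10). Trpv2 stood at 374, 403 and 387 normalized reads in the GFP- and 395, 566 and 566 in the GFP+ libraries, and it overlapped and missed the threshold. The Trpv2 log2 fold change was 0.37 (SE 0.14, adjusted p = 0.0663). Trpv1 thus took 2.51 ± 1.18% of the length-scaled TRPV sum in GFP- and 54.5 ± 6.85% in GFP+ cells. Trpm2, opened by oxidative stress through ADP-ribose, stood at 113, 124 and 88.3 normalized reads in the GFP- and 282, 282 and 244 in the GFP+ libraries, without overlap. The Trpm2 log2 fold change was 1.31 (SE 0.16, adjusted p = 6.26e-05). Trpm7, a channel joined to a kinase and the most abundant TRPM gene per kilobase in both sorts, overlapped at 2241, 1651 and 1641 normalized reads in the GFP- and 2787, 1786 and 1928 in the GFP+ libraries (log2 fold change 0.22). Trpm4, a calcium-activated cation channel, overlapped at 160.4, 186 and 149.5 normalized reads in the GFP- and 122, 131 and 163 in the GFP+ libraries (log2 fold change -0.26), and Trpm3 and Trpm6 had log2 fold changes of -0.10 and -0.14 that missed the threshold. Trpm5 and Trpv6 passed the filter with 10 and 28 recovered reads over the GFP- and 23 and 33 over the GFP+ libraries, and neither was called. Cacna1f, Cacna1s, Scn4b, Trpm8 and Trpv4 had 6 to 19 recovered reads over each group and did not pass the filter.

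Of the 18 higher calls, 14 stood in each of the 6 fits that left out 1 library. Cacna2d2 lost its call without GFP- library 1, GFP- library 3, GFP+ library 2 or GFP+ library 3 (0.26 to 0.44, adjusted p 0.0735 to 0.147), and Scn8a without GFP- library 3, GFP+ library 1, GFP+ library 2 or GFP+ library 3 (0.23 to 0.36, adjusted p 0.0573 to 0.154). Cacnb4 lost it without GFP- library 2, GFP- library 3 or GFP+ library 1 (0.29 to 0.37, adjusted p 0.0569 to 0.0931), and Cacng4 without GFP- library 3, GFP+ library 2 or GFP+ library 3 (0.27 to 0.36, adjusted p 0.0569 to 0.0932). In the other direction, Trpv2 gained a call without GFP+ library 1 (0.54, adjusted p 0.00147) and Scn1a without GFP- library 1 or GFP+ library 2 (0.42 to 0.43, adjusted p 0.0363 to 0.0461). The authors' deposited test called both higher, Trpv2 at 0.39 (adjusted p = 0.0431) and Scn1a at 0.37 (adjusted p = 0.0436). DESeq2 on recovered reads also called both, and edgeR called neither. Calls were also gained by Cacna2d1 without GFP+ library 1 (-0.38, adjusted p 0.0292), Cacnb1 without GFP- library 2 (0.39, adjusted p 0.0195), Hcn3 without GFP- library 2 (0.39, adjusted p 0.0272), Hcn4 without GFP+ library 1 (0.36, adjusted p 0.0288) and Trpm5 without GFP- library 1 (2.08, adjusted p 0.0437).

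In GFP+ cells over age, sodium pores, most calcium pores and the NALCN pore rose from E14 to P0, while auxiliary subunits went both ways. Of the 39 members in the time series, 21 were higher at P0 than at E14, 6 lower and 12 not past the threshold, where 25.1% of all 10781 genes were called higher and 30.6% lower. At least 2-fold higher were 7, against 5.36% of all genes, and the median log2 fold change was 0.29 over the members and -0.05 over all genes. All 5 measured sodium alpha subunits and 6 of 8 calcium alpha1 subunits were higher and none lower. Among auxiliary genes, 2 of 4 calcium channel beta and 2 of 5 gamma subunits, Cacna2d3 and Unc79 were lower. The auxiliary genes Cacnb2, Scn2b, Cacna2d1, Cacna2d2 and Unc80 were higher. From E14 to E16, 11 members rose and 4 fell, against 15.2% and 17.8% of all genes; the split was 12 and 1 with upper-quartile rescaling and 13 and 1 with quantile normalization. From E16 to P0, 16 rose and 6 fell, against 16.8% and 16.6%. In the authors' deposited tables, at an adjusted p under 0.05, the members called higher and lower numbered 20 and 2 between the sorts, 11 and 4 from E14 to E16, 16 and 6 from E16 to P0 and 22 and 6 from E14 to P0. The share of all genes called by the authors' test was not counted here. Cell type markers moved over the same ages: from E14 to P0, 2 of 8 dopamine neuron markers were higher and 5 lower (median log2 fold change -0.67), 1 of 3 measured radial glia markers was higher and 2 lower, and 2 of 3 measured GABAergic markers were lower. The 1 measured glutamatergic marker was higher, the 1 measured astrocyte marker lower and 1 of 2 measured oligodendrocyte lineage markers higher. The dopamine neuron markers summed to 86706 to 98872 normalized reads at E14 and 76816 to 108776 at P0, and the radial glia markers to 4047 to 4306 and 2202 to 4403. The part of these marker shifts in the channel changes was not tested. A change over any of the ages was called for 29 of 39 members (moderated F test), against 59.7% of all genes.

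**Figure D2:**
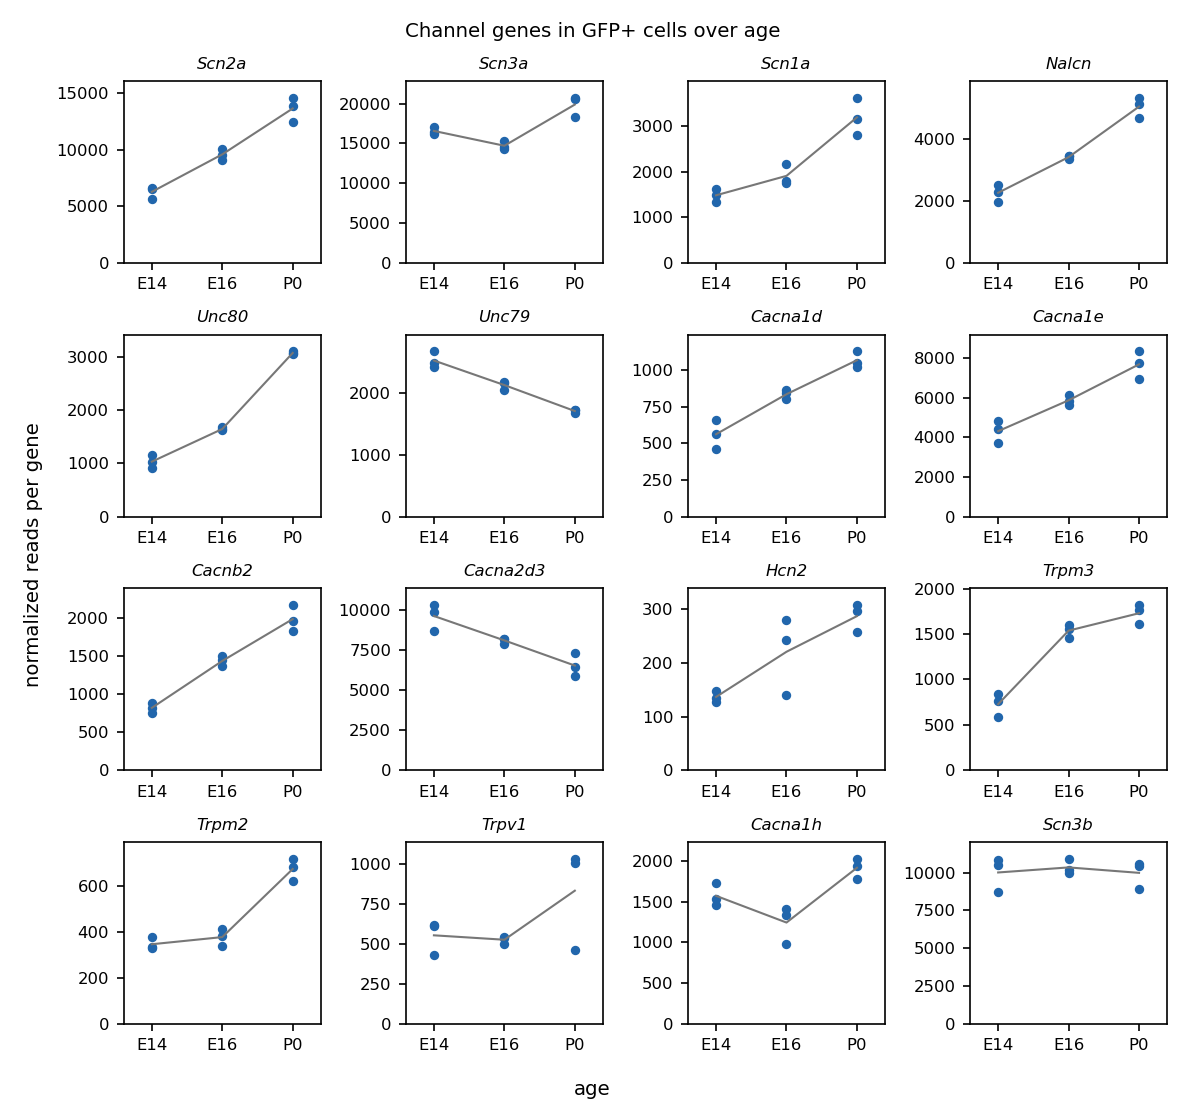
Normalized reads of 16 channel genes in GFP+ cells at E14, E16 and P0, 1 point per library (3 per age) with a line through the means, each panel on its own axis from 0. Scn2a, Nalcn and Unc80 climb at each age, Unc79 and Cacna2d3 descend, Scn3a and Cacna1h dip at E16, and 1 P0 library of Trpv1 lies at 459, below the other P0 libraries.

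Scn2a rose at each step, with 6653, 6518 and 5662 normalized reads at E14, 10091, 9133 and 9546 at E16 and 12458, 13876 and 14610.3 at P0. The 3 ages did not overlap, and the E14 to P0 difference was large for its error. The Scn2a log2 fold change was 1.12 (SE 0.08, adjusted p = 1.15e-07). Scn1a stood at 1620.2, 1484 and 1334 normalized reads at E14, 2173, 1786 and 1755 at E16 and 3619, 3143 and 2795 at P0, and each age lay above the one before. The Scn1a log2 fold change was 1.10 (SE 0.11, adjusted p = 1.60e-06). Scn3a took another course, with 17114, 16443 and 16119.7 normalized reads at E14, 15298, 14520.5 and 14282 at E16 and 20597, 20747 and 18268 at P0. It was lowest at E16 and highest at P0, with all P0 libraries above all others. The Scn3a log2 fold change was 0.26 (SE 0.08, adjusted p = 0.00907). Scn9a stood at 2828, 2816 and 2711 normalized reads at E14, 3503, 3065 and 3054 at E16 and 3919.9, 3725 and 3219 at P0. The Scn9a log2 fold change was 0.37 (SE 0.09, adjusted p = 0.00196). Scn8a stood at 1068, 951 and 827 normalized reads at E14, 942, 856 and 933 at E16 and 1183, 1083 and 1183 at P0. The Scn8a log2 fold change was 0.28 (SE 0.10, adjusted p = 0.0242). The Scn9a and Scn8a libraries of P0 lay above those of E14, by a small margin for Scn8a.

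Scn3a remained the most abundant alpha subunit per kilobase at each age, but its share fell. Of the length-scaled sum of Scn1a, Scn2a, Scn3a and Scn8a it took 65.1, 65.2 and 67.7% in the E14 libraries, 54.0, 55.6 and 54.3% at E16 and 54.5, 53.6 and 49.9% at P0. The E14 libraries stood above all others, and the E16 and P0 libraries overlapped. The means were 66.0 ± 1.48%, 54.6 ± 0.853% and 52.7 ± 2.47% (SD, n = 3), given without a p-value. Scn2a rose in share from 24.4 ± 1.04% to 35.5 ± 3.40%, Scn1a from 6.58 ± 0.314% to 9.44 ± 1.13%, and Scn8a went from 2.98 ± 0.232% to 2.41 ± 0.179%. Of the beta subunits, Scn2b stood at 806, 886 and 795 normalized reads at E14, 916, 935 and 891 at E16 and 1064, 1187 and 952 at P0. The Scn2b log2 fold change was 0.36 (SE 0.09, adjusted p = 0.00477). Scn3b overlapped between the ages, with 10477, 10849.5 and 8690.1 normalized reads at E14, 9945, 10150.2 and 10923 at E16 and 8942, 10407 and 10592 at P0, and at P0 it was still the highest member per kilobase, at 1828 ± 165, ahead of Scn3a at 1595 ± 112. The Scn3b log2 fold change was -0.0011 (SE 0.09, adjusted p = 0.993).

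**Figure D3:**
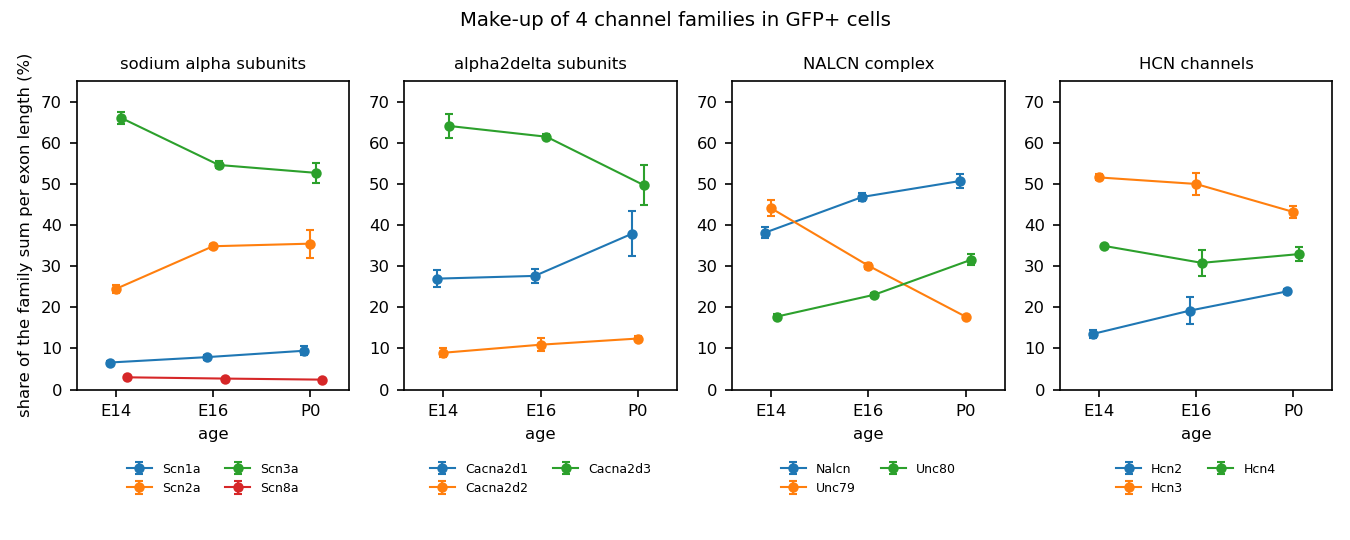
Share of each gene (%) in the length-scaled sum of the genes in its panel, in GFP+ cells at E14, E16 and P0. Points give the mean and bars the SD of 3 libraries, slightly offset for legibility. The sodium panel holds Scn1a, Scn2a, Scn3a and Scn8a, without Scn9a. Scn3a and Cacna2d3 lose share with age, Nalcn and Unc80 gain it and Unc79 loses it.

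Among calcium channel pores, Cacna1e rose, with 4813, 4427 and 3691 normalized reads at E14, 6155, 5817 and 5630.0 at E16 and 8344, 7742 and 6965 at P0. The Cacna1e log2 fold change was 0.84 (SE 0.10, adjusted p = 6.12e-06). Cacna1d, the L-type pore, rose with 661, 564 and 459 normalized reads at E14, 842, 861 and 801 at E16 and 1128, 1023 and 1050.1 at P0. The Cacna1d log2 fold change was 0.94 (SE 0.12, adjusted p = 1.08e-05). For both genes each age lay above the one before, without overlap. Cacna1a stood at 824, 754 and 772 normalized reads at E14, 903, 959.9 and 877 at E16 and 1298, 1269.7 and 1115 at P0. The Cacna1a log2 fold change was 0.65 (SE 0.09, adjusted p = 2.69e-05). Cacna1b stood at 2312, 2284 and 2269.8 normalized reads at E14, 2371, 2369.7 and 2307 at E16 and 3223, 2908 and 3042 at P0. The Cacna1b log2 fold change was 0.42 (SE 0.07, adjusted p = 0.000141). For Cacna1b the later step passed and the earlier did not (log2 fold change 0.04 to E16, adjusted p = 0.704, then 0.38, adjusted p = 0.00102), although the difference between the steps missed the threshold (adjusted p = 0.0687). The P0 libraries of Cacna1a and Cacna1b were above all earlier ones. Cacna1c stood at 1059.5, 929 and 873 normalized reads at E14, 1124, 1311 and 1104 at E16 and 1296, 1167 and 1098 at P0. The Cacna1c log2 fold change was 0.32 (SE 0.10, adjusted p = 0.0158). Of the T-type pores, Cacna1g stood at 974, 785 and 804 normalized reads at E14, 687, 907 and 799 at E16 and 1127, 1069 and 1014 at P0. The Cacna1g log2 fold change was 0.33 (SE 0.11, adjusted p = 0.0226). Cacna1h stood at 1528, 1725 and 1460.1 normalized reads at E14, 981, 1414 and 1334 at E16 and 2028, 1935 and 1782 at P0, with all E16 libraries below all others. The Cacna1h log2 fold change was 0.29 (SE 0.12, adjusted p = 0.0556). Cacna1i overlapped between the ages, with 216, 222 and 211 normalized reads at E14, 169.7, 188 and 215 at E16 and 246, 226 and 118 at P0 (log2 fold change -0.21, adjusted p = 0.443). Per kilobase, Cacna1b (308 ± 15.9) and Cacna1e (305 ± 27.4) were the leading pores at P0 and differed by less than their SD. Before division by exon length (25228 bases for Cacna1e and 9942 for Cacna1b), Cacna1e was the higher in every P0 library.

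Cacnb2 had the largest rise among auxiliary calcium channel subunits, with 884, 819 and 757 normalized reads at E14, 1497, 1447 and 1367 at E16 and 1829, 1959.8 and 2174 at P0. The Cacnb2 log2 fold change was 1.28 (SE 0.09, adjusted p = 5.15e-08). Each age lay above the one before, and its share of the length-scaled beta subunit sum went from 5.11 ± 0.235% to 13.5 ± 1.21%. Cacnb3, the most abundant beta subunit per kilobase, fell, with 2892, 2919.9 and 2762 normalized reads at E14, 2387, 2729 and 2727 at E16 and 2311, 2390.1 and 2255 at P0. The Cacnb3 log2 fold change was -0.30 (SE 0.07, adjusted p = 0.00336). Cacnb1 fell, with 1246, 1138 and 1098 normalized reads at E14, 998, 1289.6 and 1151 at E16 and 943, 942 and 909 at P0, and Cacnb4 overlapped, with 1648, 1582 and 1617 normalized reads at E14, 1786, 1491 and 1518 at E16 and 1589, 1633 and 1602 at P0. The Cacnb1 log2 fold change was -0.32 (SE 0.10, adjusted p = 0.0127). The Cacnb4 log2 fold change was -0.01 (SE 0.08, adjusted p = 0.950). For Cacnb3 and Cacnb1 all P0 libraries were below all E14 libraries.

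Of the alpha2delta subunits, Cacna2d3 was lower at P0 than at E14, and Cacna2d1 and Cacna2d2 were higher. Cacna2d3 fell, with 8658, 9859 and 10292 normalized reads at E14, 8201, 7862 and 8182 at E16 and 5853, 6410.2 and 7285 at P0. The Cacna2d3 log2 fold change was -0.56 (SE 0.09, adjusted p = 0.000109). Each age of Cacna2d3 lay below the one before. Cacna2d1 stood at 5913, 5699 and 5589 normalized reads at E14, 5500.2, 4693 and 5343 at E16 and 7637, 7605 and 5952 at P0, with P0 library 3 well below the other P0 libraries. The Cacna2d1 log2 fold change was 0.29 (SE 0.10, adjusted p = 0.0191). Cacna2d2 stood at 1219.9, 1348 and 1087 normalized reads at E14, 1102, 1422 and 1391 at E16 and 1378, 1514 and 1555 at P0. The Cacna2d2 log2 fold change was 0.29 (SE 0.11, adjusted p = 0.0366). Cacna2d3 took 61.2, 64.3 and 66.8% of the length-scaled sum of the 3 measured alpha2delta genes at E14, 61.8, 61.8 and 60.8% at E16 and 46.0, 47.8 and 55.3% at P0. All P0 libraries were below all earlier ones (mean 64.1 ± 2.80% at E14 and 49.7 ± 4.95% at P0), given without a p-value. Of the gamma family, Cacng7 fell, with 366, 344 and 375 normalized reads at E14, 256, 359.7 and 294 at E16 and 235, 229 and 235 at P0, and Cacng2 fell, with 879, 928 and 930.3 normalized reads at E14, 772, 809 and 738 at E16 and 738, 775 and 814 at P0. The Cacng7 log2 fold change was -0.63 (SE 0.13, adjusted p = 0.000913). The Cacng2 log2 fold change was -0.23 (SE 0.08, adjusted p = 0.0274). All P0 libraries of both genes were below all E14 libraries. Cacng3 was highest at E16 and overlapped between E14 and P0, with 391, 386 and 368 normalized reads at E14, 479, 511 and 468 at E16 and 364, 387 and 362 at P0 (E14 to P0 log2 fold change -0.04, adjusted p = 0.744). Cacng4 and Cacng8 had E14 to P0 log2 fold changes of -0.22 and 0.44 that missed the threshold.

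The 3 genes of the NALCN complex parted with age. Unc80 rose the most of all 39 members on the log2 scale, with 1160.1, 1024 and 904 normalized reads at E14, 1675, 1619 and 1633 at E16 and 3044, 3064 and 3102 at P0. The Unc80 log2 fold change was 1.58 (SE 0.09, adjusted p = 6.93e-09). Nalcn rose at each step, with 2501, 2299 and 1975 normalized reads at E14, 3338, 3449 and 3430.4 at E16 and 5120.4, 5325 and 4659 at P0. The Nalcn log2 fold change was 1.16 (SE 0.09, adjusted p = 1.13e-07). Unc79 fell at each step, with 2671, 2476 and 2416 normalized reads at E14, 2169, 2155 and 2049 at E16 and 1723, 1722 and 1668 at P0. The Unc79 log2 fold change was -0.56 (SE 0.07, adjusted p = 1.30e-05). No library of one age overlapped those of another in any of the 3 genes. Per kilobase, Unc79 led at E14 at 177 ± 9.33, above Nalcn at 153 ± 18 and Unc80 at 71.4 ± 8.87. At P0 the order was Nalcn at 342 ± 23.2, Unc80 at 213 ± 2.03 and Unc79 at 119 ± 2.21. Unc79 thus went from 44.1 ± 1.86% to 17.7 ± 0.331% of their length-scaled sum.

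Hcn2, a cAMP-sensitive HCN channel of the brain, rose with 147, 135 and 128 normalized reads at E14, 141, 279.9 and 242 at E16 and 258, 309 and 297 at P0. The Hcn2 log2 fold change was 1.06 (SE 0.20, adjusted p = 0.000552). The P0 libraries all lay above the E14 libraries, and E16 library 1 lay with E14. Hcn3 and Hcn4 overlapped between E14 and P0 (log2 fold changes -0.01 and 0.16), and the share of Hcn2 in the HCN sum went from 13.5 ± 1.03% to 23.9 ± 0.641%. In single libraries, Hcn3 had 705, 746 and 594 normalized reads at E14, 615, 858 and 721 at E16 and 636, 713 and 675 at P0, and Hcn4 had 700.0, 741 and 597 normalized reads at E14, 567, 672 and 741 at E16 and 663, 876 and 746 at P0. Trpm3, a heat- and steroid-gated channel whose gene hosts Mir204, rose, with 835, 763 and 584 normalized reads at E14, 1600.1, 1558 and 1455 at E16 and 1821, 1608 and 1760.3 at P0. The Trpm3 log2 fold change was 1.26 (SE 0.11, adjusted p = 5.98e-07). Trpm2 rose, with 375, 330.0 and 332 normalized reads at E14, 336, 413 and 381 at E16 and 618, 718 and 681 at P0. The Trpm2 log2 fold change was 0.96 (SE 0.11, adjusted p = 6.73e-06). The Trpm3 libraries of E16 were already far above E14, and those of Trpm2 still overlapped E14. Trpm4 stood at 147, 134 and 177 normalized reads at E14, 171, 179 and 135 at E16 and 187, 249.7 and 239 at P0, and Trpm7 overlapped, with 3104, 2977 and 3075 normalized reads at E14, 2959, 2584 and 2619 at E16 and 3157, 3090.4 and 2659 at P0. The Trpm4 log2 fold change was 0.55 (SE 0.17, adjusted p = 0.0120). The Trpm7 log2 fold change was -0.04 (SE 0.08, adjusted p = 0.674). Trpv2 overlapped at 636, 693 and 553 normalized reads at E14, 640.4, 783 and 766 at E16 and 685, 709 and 829 at P0. The Trpv2 log2 fold change was 0.24 (SE 0.12, adjusted p = 0.0903). Trpv1 stood at 612, 614 and 432 normalized reads at E14, 497, 544 and 535 at E16 and 1004, 1032 and 459 at P0, so that 2 P0 libraries were high and P0 library 3 lay with the earlier ages. The Trpv1 log2 fold change was 0.52 (SE 0.24, adjusted p = 0.0803). Without P0 library 3 its log2 fold change was 0.90 (adjusted p = 0.000141). In the same P0 libraries 1, 2 and 3, the glutamatergic marker Slc17a6 was at 8211, 8294 and 5111 normalized reads, and the 3 measured of 7 GABAergic markers summed to 5083, 4407 and 3181, so both were lowest in library 3. The 8 dopamine neuron markers summed to 76816, 92767 and 108776 and the 3 measured of 8 radial glia markers to 2676, 2202 and 4403, both highest in library 3. Members of these lists differed: Slc6a3, the dopamine transporter (20001, 28473 and 41949), and Fabp7 (1438, 1081 and 3293) were highest there, whereas Nr4a2 (6939, 7792 and 6611), Foxa2 (1658, 1662 and 1326) and Vim (953, 908 and 882) were lowest there. The part of these markers in the Trpv1 values was not tested.

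Of the 27 E14 to P0 calls, 19 (15 higher and 4 lower) stood in each of the 9 fits that left out 1 library. Calls were lost by Cacna1c without E14 library 2, E14 library 3 or P0 library 1 (0.25 to 0.30, adjusted p 0.0534 to 0.0715), Cacna1g without E14 library 2, E14 library 3, P0 library 1 or P0 library 2 (0.27 to 0.33, adjusted p 0.0569 to 0.0973), and Cacna2d1 without E14 library 2, E14 library 3, P0 library 1 or P0 library 2 (0.23 to 0.29, adjusted p 0.0534 to 0.0928). Cacna2d2 lost its call without E14 library 1, E14 library 3, P0 library 2 or P0 library 3 (0.21 to 0.29, adjusted p 0.0744 to 0.152), Scn8a without E14 library 2, E14 library 3, P0 library 1 or P0 library 3 (0.19 to 0.29, adjusted p 0.0569 to 0.120), and Cacng2 without E14 library 2, E14 library 3, P0 library 1 or P0 library 2 (-0.24 to -0.20, adjusted p 0.0665 to 0.0926). Cacnb1 lost it without E14 library 1 (-0.26, adjusted p 0.0606) and Trpm4 without E14 library 2 or P0 library 2 (0.47, adjusted p 0.0568 to 0.0580). Cacna1h gained a call without E14 library 2, E16 library 1, E16 library 2 or P0 library 3 (0.29 to 0.36, adjusted p 0.0103 to 0.0474), and so did Cacng4 without E16 library 1 or E16 library 2 (-0.22, adjusted p 0.0423 to 0.0463) and Cacng8 without E16 library 1 or E16 library 2 (0.44, adjusted p 0.0314 to 0.0382). Scn7a and Trpv3 are among the members with no row in the time series.

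By step, Cacna1c, Cacna1d, Cacna1e, Cacnb2, Cacng3, Hcn2, Nalcn, Scn1a, Scn2a, Trpm3 and Unc80 rose from E14 to E16, and Cacna1h, Cacna2d3, Cacng2 and Unc79 fell. From E16 to P0, Cacna1a, Cacna1b, Cacna1d, Cacna1e, Cacna1g, Cacna1h, Cacna2d1, Cacnb2, Nalcn, Scn1a, Scn2a, Scn3a, Scn8a, Trpm2, Trpm4 and Unc80 rose, and Cacna2d3, Cacnb1, Cacng3, Cacng4, Cacng7 and Unc79 fell. Rises called at both steps were those of Cacna1d, Cacna1e, Cacnb2, Nalcn, Scn1a, Scn2a and Unc80, and falls at both steps those of Cacna2d3 and Unc79. Of the 15 early calls, 8, all rises, stood in every fit that left out 1 library, and without E14 library 2 the calls numbered 9. Early calls were lost by Cacna1c without E14 library 2, E14 library 3 or E16 library 2 (0.23 to 0.29, adjusted p 0.0948 to 0.125), Scn1a without E14 library 2, E14 library 3 or E16 library 1 (0.26 to 0.37, adjusted p 0.0548 to 0.0960) and Hcn2 without E14 library 2, E14 library 3, E16 library 2 or E16 library 3 (0.43 to 0.63, adjusted p 0.0712 to 0.115). Early falls were lost by Unc79 without E14 library 1 or E16 library 3 (-0.22 to -0.20, adjusted p 0.0665 to 0.0753) and Cacna1h without E14 library 1, E14 library 2, E16 library 1 or P0 library 2 (-0.37 to -0.19, adjusted p 0.0529 to 0.147). Cacna2d3 lost its early fall without E14 library 2, E14 library 3, E16 library 1, E16 library 2, E16 library 3 or P0 library 2 (-0.26 to -0.19, adjusted p 0.0679 to 0.166), and Cacng2 without E14 library 1, E14 library 2, E14 library 3, E16 library 1, E16 library 3 or P0 library 2 (-0.27 to -0.21, adjusted p 0.0583 to 0.135). Of the 22 later calls, 15 stood (13 rises and 2 falls). Later rises were lost by Scn8a without P0 library 1 (0.32, adjusted p 0.0532), Cacna1d without E16 library 1, E16 library 3, P0 library 1, P0 library 2 or P0 library 3 (0.31 to 0.38, adjusted p 0.0521 to 0.0996) and Trpm4 without E14 library 1, E14 library 2, E16 library 1, E16 library 3, P0 library 2 or P0 library 3 (0.35 to 0.52, adjusted p 0.0508 to 0.180). Later falls were lost by Cacna2d3 without E16 library 3, P0 library 1 or P0 library 2 (-0.31 to -0.24, adjusted p 0.0507 to 0.0658) and Cacng4 without E16 library 2, E16 library 3 or P0 library 3 (-0.32 to -0.25, adjusted p 0.0655 to 0.0754). Cacnb1 lost its later fall without E16 library 2, E16 library 3, P0 library 1, P0 library 2 or P0 library 3 (-0.30 to -0.20, adjusted p 0.0598 to 0.108), and Cacng7 without E14 library 1, E14 library 2, E14 library 3, E16 library 2, E16 library 3, P0 library 1, P0 library 2 or P0 library 3 (-0.38 to -0.23, adjusted p 0.0511 to 0.155).

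For some members the change after E16 differed from the change before it, at a share close to that of all genes. Of 39 members, 4 had a second step above the first and 2 below it, past the threshold, against 8.00% and 5.62% of all genes. Scn3a went by -0.17 and then 0.43 (difference 0.60, SE 0.13, adjusted p = 0.00918), Cacna1h by -0.35 and 0.64 and Cacna2d1 by -0.15 and 0.44, all as log2 fold changes. Trpm2 went by 0.12 and then 0.84. Trpm3 went by 1.09 and then 0.17, and Cacng3 by 0.35 and -0.39, with the later step below the earlier. Cacna1h, Trpm3 and Cacng3 kept this call in each fit that left out 1 library, and without E16 library 3 the calls numbered 3. Scn3a lost it without E16 library 3 (0.56, adjusted p 0.0585). Trpm2 lost it without E14 library 1, E16 library 1, E16 library 3 or P0 library 2 (0.56 to 0.74, adjusted p 0.0576 to 0.106), and Cacna2d1 without E14 library 1, E14 library 2, E16 library 2, E16 library 3, P0 library 1 or P0 library 2 (0.45 to 0.64, adjusted p 0.0613 to 0.102).

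The genes whose course over the 9 time series libraries was most like that of Scn3a, by Pearson correlation of log2 values over all 10781 genes, were Tspyl2 (r = 0.981), Mink1 (r = 0.979), Caprin2 (r = 0.976), Rhot2 (r = 0.970) and Col9a3 (r = 0.969). Among the members, Cacna2d1 was nearest (r = 0.946), followed by Cacna1b (r = 0.834), while Scn2a stood at r = 0.514. The libraries share their ages and depth, so these values are a description.

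The sorted and the time series libraries were separate, so both differences could be set side by side for 39 members. Of the 17 of them higher in GFP+ cells, 9 rose from E14 to P0 (Cacna1a, Cacna1b, Cacna1e, Cacna2d2, Scn3a, Scn8a, Scn9a, Trpm2 and Unc80), 3 fell (Cacna2d3, Cacng2 and Unc79) and 5 were not called (Cacnb4, Cacng3, Cacng4, Scn3b and Trpv1). Of the 22 not called between the sorts, 12 rose, among them Scn2a, Nalcn, Cacna1d, Cacnb2, Hcn2 and Trpm3, 3 fell (Cacnb1, Cacnb3 and Cacng7) and 7 were not called. Of all 10781 genes of the time series, 25.1% were called higher and 30.6% lower from E14 to P0. A link between the sort and age differences was not tested. Cacna2d3 joined a large difference between the sorts with a fall over age, and Scn2a, Cacnb2 and Nalcn rose at least 2-fold over age with no call between the sorts.

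**Figure D4:**
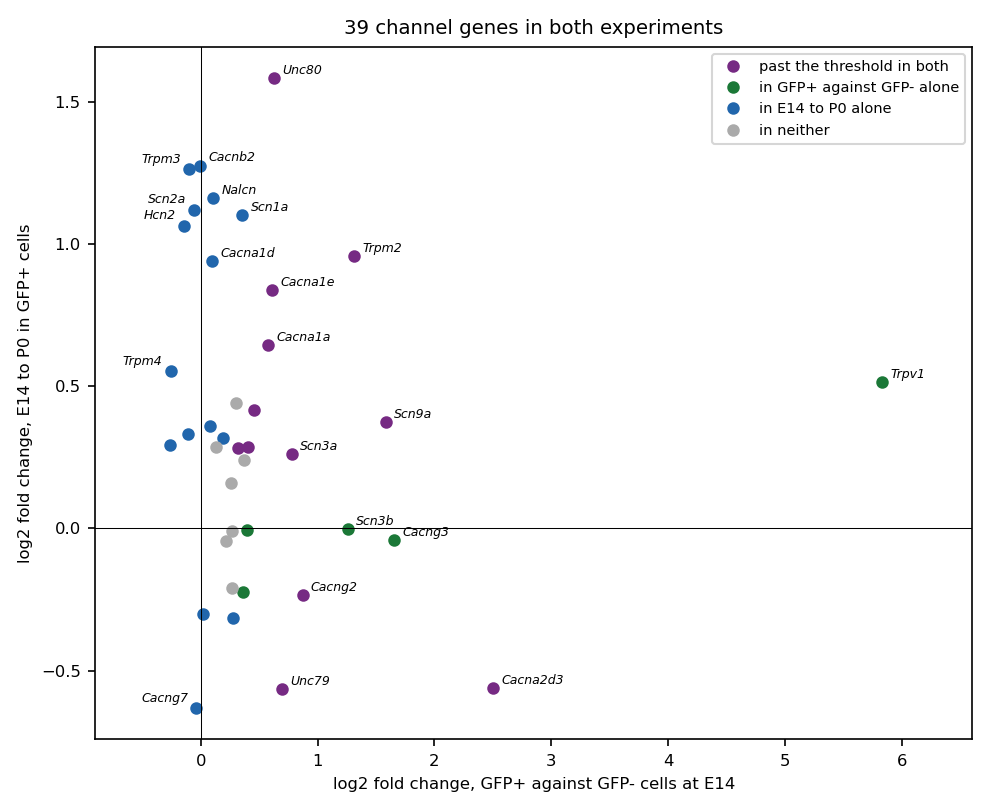
Log2 fold change between GFP+ and GFP- cells at E14 (horizontal) against that from E14 to P0 in GFP+ cells (vertical) for the 39 channel genes in both experiments, 1 point per gene, coloured by which comparison passed the threshold. Trpv1 lies far right at 5.83, Unc80 highest at 1.58, and Cacna2d3 right and low at 2.50 and -0.56.

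Circular RNAs, closed loops counted from back-splice junctions, were listed for 17 member genes in the time series, in 66 of 7528 rows with 1275 recovered reads in all. Cacna2d3 had the most rows (17 circRNAs, 152 reads), and Unc79 the most reads (8 circRNAs, 487 reads). The most abundant, circ_00059_Unc79, stood at 33.6, 61.8 and 32 normalized reads at E14, 27.3, 64.9 and 46.6 at E16 and 29.7, 42.4 and 60.4 at P0, on 430 recovered reads, and its ages overlapped. Its E14 to P0 log2 fold change was 0.06 (SE 0.37), beside -0.56 (SE 0.07) for the gene, and the difference between them was not tested. Of 11 member circRNAs with a mean of at least 2 normalized reads, 0 were called from E14 to P0 by limma and 1 had an unadjusted p under 0.05, against 3.19% of 1630 circRNAs called. That one, circ_00256_Cacna1b, stood at 15.3, 21.6 and 7.30 normalized reads at E14 and 0, 13 and 5.93 at P0 (log2 fold change -1.66, SE 0.77, adjusted p = 0.243), on 131 recovered reads over all 9 libraries. Second by reads was circ_00222_Cacna1c, with 148 recovered reads and an E14 to P0 log2 fold change of 0.19 (SE 0.60). The most abundant circle of the other genes had 45 reads for circ_00834_Cacna2d1, 37 reads for circ_01000_Trpm7, 35 reads for circ_01037_Cacna1a, 29 reads for circ_01240_Cacna2d3, 26 reads for circ_01343_Nalcn, 24 reads for circ_01408_Scn9a, 12 reads for circ_02330_Scn3a and 10 reads for circ_02670_Scn8a, and 3 to 9 for those of Cacnb2, Trpm3, Cacna1e, Cacng3, Scn2a and Cacnb4. In the sorted experiment the authors' deposited table lists 27 circRNAs of members, with the smallest p for circ_00196_Cacna1c (log2 fold change -1.06, SE 0.58, p = 0.0689, adjusted p = 0.753).

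Genes that work beside these channels were read from the same fits, in which 12.7% of all genes were called higher and 18.0% lower between the sorts, and 25.1% higher and 30.6% lower from E14 to P0. Potassium channels, which repolarize the membrane, were listed together with auxiliary proteins such as Kcnip4. Of these genes, 15 of 45 were higher and 13 lower in GFP+ cells (median log2 fold change -0.07). Kcnk9, Kcnip4 and Kcnd3 were highest (4.23, 2.46 and 1.87) and Kcnj5, Kcnq5 and Kcnc4 lowest (-1.60, -1.54 and -1.37). From E14 to P0, 21 of 36 were higher and 4 lower (median 0.44), led by Kcnj9 (1.51), Kcnc2 (1.38) and Kcnt1 (1.36), with Kcnk9 (-1.14), Kcnh1 (-0.53) and Kcnn1 (-0.39) lower. Of the partners and anchors of sodium and calcium channels, 10 of 24 were higher and 3 lower in GFP+ cells (median 0.20), among them Fgf13, an intracellular sodium channel partner (1.12), Pex5l, an HCN channel partner (1.05), and Fam155a, a NALCN partner (0.69), with Fgf11, Fgf12 and Dlg2 lower (-1.28, -0.39 and -0.30). From E14 to P0, 11 of 18 were higher and 3 lower (median 0.49), led by Cntn1 (2.20), Pex5l (2.17) and Fgf12 (1.22), with Rem2 (-0.64), Nedd4l (-0.39) and Nfasc (-0.20) lower. Of the calcium stores, pumps and buffers, 8 of 33 were higher and 10 lower in GFP+ cells (median -0.16), with Necab1 (2.86), Ryr3 (1.27) and Slc8a1 (0.60) higher and Pvalb (-3.45), Itpr2 (-1.97) and Tpcn1 (-1.42) lower. From E14 to P0, 19 of 25 were higher and 2 lower (median 0.65), led by Calb1, a calcium buffer (2.23), Ryr1 (2.13) and Hpca (1.83), with Ncs1 (-0.44) among the lower.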

How the data were processed

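RNA of sorted ventral midbrain cells was depleted of ribosomal RNA and sequenced, and the deposited tables give signal as normalized reads, which the authors made by dividing reads per gene or circular RNA by 1 factor per library. Per the submitters' processing notes, the tools included TopHat2, Trim Galore and DESeq2, with the builds GRCm38 and mm10, given without versions or roles, and the read counter, the use of strand and the circRNA caller are not given in the sources used here. Dividing each value by its library's smallest step gave whole reads, within 0.1 read, for 100.0% of values. The authors' deposited comparison tables also hold a log2 fold change, its standard error (recorded as a score), a p-value and an adjusted p-value per feature, made before deposit.

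From these values, log2(normalized reads + 1) was fitted with limma 3.58.1 (trend; R 4.3.3) over all genes with a mean of at least 5 normalized reads, or circRNAs with at least 2, and p-values were adjusted by the Benjamini-Hochberg method over all of them, two-sided, with a threshold of 0.05. The sorted and time series tables were normalized separately and fitted separately, and no level was compared across them. The fit was tested on simulated data with known changes of at least 2-fold in abundant genes and the same dispersion for every gene. Smaller changes, and changes in genes of few reads, were not simulated. edgeR 4.0.16 and DESeq2 1.42.0 on recovered reads of the sorted table, other pseudocounts, filters and scalings, a replicate block and each library left out were alternatives. Levels between genes were divided by GENCODE M21 union exon length. That length need not match the transcripts present, and orders between genes depend on it. Shares over age are described by their values, mean and SD, without a p-value.

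Per-library values are given for up to 15 called members per direction with the largest change, for a set list of spike and pacemaker channels, and for a few more auxiliary subunits. Of other lists up to 3 genes per direction are named, and for circRNAs the most abundant per gene. The members and lists were chosen with earlier results of these data known. A few genes of the tables are not reported here by name, and the counts include them.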

Additional observations from a re-analysis of the deposited data

Results flagged for a closer look

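For 6 of 39 members (15.4%, close to the 13.6% of all 10781 genes) the log2 change from E16 to P0 differed from that from E14 to E16. This was a direct test of the difference, the later minus the earlier step (limma, Benjamini-Hochberg adjusted over all genes). Cacna1h had the largest positive difference, 0.99 (SE 0.21, adjusted p = 0.00804), after a fall and then a rise. Trpm2 followed with 0.72 (SE 0.19, adjusted p = 0.0270), Scn3a with 0.60 (SE 0.13, adjusted p = 0.00918) and Cacna2d1 with 0.59 (SE 0.17, adjusted p = 0.0328). The difference was negative for Trpm3, at -0.93 (SE 0.20, adjusted p = 0.00854), whose rise came mainly by E16, and for Cacng3, at -0.74 (SE 0.17, adjusted p = 0.0122), which rose and then fell. The calls of Scn3a, Cacna2d1 and Trpm2 were each lost in at least 1 of the 9 fits that left out 1 library. Groups of 3 libraries were too small to be searched for outlying libraries.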

How the results depend on the processing

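Between the sorts, 19 members were called, and 15 to 21 with 1 library left out, 26 with quantile normalization, 14 with a robust prior and no trend, 19 by edgeR and 22 by DESeq2. From E14 to P0, 27 were called, and 21 to 30 with 1 library left out. From E16 to P0 the 22 calls became 16 to 21, and the 29 with any change 25 to 31. From E14 to E16 the 15 calls became 9 to 17, lowest without E14 library 2, and the 6 differences between the steps 3 to 7, lowest without E16 library 3; the cause was not tested. The count of called circRNAs was 0 in the 13 alternatives run. The fall of the Scn3a share, -13.3 percentage points from E14 to P0, ranged from -14.3 to -11.9 with 1 library left out and was -13.1 without division by length, and that of Cacna2d3, -14.4, ranged from -17.2 to -12.5 and was -14.6. No gene changed direction while called. The labels do not say whether libraries of different groups are paired, and for sorted libraries titles and descriptions give different numbers. Same-numbered sorted libraries correlated at 0.367, 0.120 and 0.0976 in their deviations from the group means. Those of the time series correlated at -0.113 to 0.245. With the replicate block the calls numbered 28 between the sorts, 15 from E14 to E16, 21 from E16 to P0 and 29 from E14 to P0. They numbered 30 for any change, 6 for the difference between steps and 0 for circRNAs. The calls that this block added between the sorts included the higher Cacna1c, Cacnb1, Hcn3, Hcn4, Scn1a, Trpm7 and Trpv2 and the lower Cacna2d1. Few recovered reads, and so wide counting error, stand behind the sorted levels of Scn7a, Scn11a, Trpm5, Trpv3, Trpv6, Cacng1 and Cacna2d4, and behind most member circRNAs.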
